A study of Mus musculus with 16 samples.

Results

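Sox2 binding was compared between day 1 and day 5 of reprogramming with the Oct4defSox2-SK cocktail. A day 1 summit with a day 5 summit within 100 bp was called kept, a day 1 summit with none was called lost, and a day 5 summit with no day 1 summit within 100 bp was called gained. On chromosomes 1 to 19, X and Y, the day 1 list held 5793 summits and the day 5 list 21551, so that 1894 sites were kept, 3899 were lost and 19656 were gained. These 25449 sites stand beside 226962 summits in the 13 ChIP-seq libraries of the series. OG2 MEFs, fibroblasts of mouse embryos that carry an Oct4-GFP reporter, were used throughout, and both libraries came from cells transduced with retroviruses for Sox2, Klf4 and Oct4defSox2 (labelled YR), an Oct4 with substitutions in the surface that meets Sox2 on DNA. Days were counted from the change to iCD1 medium, a chemically defined reprogramming medium, and chromatin was precipitated with a Sox2 antibody. The comparison libraries came from the same cells given Oct4-SK, Oct6-SK, Oct4 S151M-SK or Oct6 M151S-SK, in which another POU factor took the place of Oct4defSox2 beside Sox2 and Klf4. Each group was 1 library, and the factors were driven by pMX retroviral vectors beside the cells' own genes. Intervals are therefore 95% intervals of counting error and describe these libraries, and no test over replicates could be made. Read depth was not used here, so a longer list and a later day cannot be told apart.

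Sox2 is an HMG-box factor that binds short AT-rich sequences of the CATTGTT and CTTTGTT kind in the minor groove and bends the DNA. In pluripotent cells it is best known for binding next to Oct4 on composite SoxOct elements, a Sox site followed by an octamer, which lie in enhancers of many pluripotency genes. AP-1, the Fos and Jun dimer, binds TGACTCA and marks many enhancers of fibroblasts.

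The bases around 12 summits are shown because they carry the contrasts described below. They were read from GRCm38 (mm10), plus strand, 50 bp to each side of the summit. Capitals mark a match on either strand to the Sox sequences CATTGTT or CCATTGT, to their variants with CTTTGTT or with CCTTTGT, to the AP-1 sequence TGACTCA, or to SoxOct. The first pair are the kept sites beside Mobp, chr9:120149522-120149622, and in the gene desert beyond Gm9376, chr14:118416316-118416416, which had some of the highest scores on both days. Next come the lost day 1 summit and the gained day 5 summit near Sox21, chr14:118230408-118230508 and chr14:118230605-118230705, which lie 197 bp apart. Then follow 4 lost sites with no day 5 summit within 1 kb, in introns of Cyp2j9 (chr4:96577109-96577209), Egf (chr3:129684002-129684102) and Cntnap4 (chr8:112869619-112869719) and between genes beyond Gpr149 (chr3:62938848-62938948). They are followed by 3 gained sites with no day 1 summit within 1 kb, in introns of Arid1b (chr17:5293794-5293894) and Trak1 (chr9:121337798-121337898) and upstream of Socs3 (chr11:117975567-117975667). The last is the highest-scoring gained site with a SoxOct match, between genes beyond Fam98a (chr17:75936790-75936890).
Mobp, kept: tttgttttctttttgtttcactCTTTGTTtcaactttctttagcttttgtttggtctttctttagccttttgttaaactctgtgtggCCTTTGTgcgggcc
Gm9376, kept: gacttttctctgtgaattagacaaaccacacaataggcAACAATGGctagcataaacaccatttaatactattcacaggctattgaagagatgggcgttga
Sox21, lost: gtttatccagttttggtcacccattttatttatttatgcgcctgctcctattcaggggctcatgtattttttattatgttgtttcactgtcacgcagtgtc
Sox21, gained: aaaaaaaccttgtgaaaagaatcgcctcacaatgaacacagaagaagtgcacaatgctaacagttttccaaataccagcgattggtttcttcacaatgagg
Cyp2j9, lost: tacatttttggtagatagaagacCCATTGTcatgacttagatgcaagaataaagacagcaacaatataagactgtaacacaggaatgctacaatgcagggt
Gpr149, lost: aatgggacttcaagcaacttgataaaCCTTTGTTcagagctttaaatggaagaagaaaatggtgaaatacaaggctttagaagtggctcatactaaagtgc
Egf, lost: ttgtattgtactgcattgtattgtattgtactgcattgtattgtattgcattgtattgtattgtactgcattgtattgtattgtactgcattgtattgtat
Cntnap4, lost: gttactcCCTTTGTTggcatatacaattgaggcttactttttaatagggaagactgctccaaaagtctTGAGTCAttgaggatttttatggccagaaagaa
Arid1b, gained: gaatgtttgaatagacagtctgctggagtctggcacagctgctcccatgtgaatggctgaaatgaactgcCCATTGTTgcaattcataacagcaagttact
Trak1, gained: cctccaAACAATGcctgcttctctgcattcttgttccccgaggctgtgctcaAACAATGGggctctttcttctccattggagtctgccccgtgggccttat
Socs3, gained: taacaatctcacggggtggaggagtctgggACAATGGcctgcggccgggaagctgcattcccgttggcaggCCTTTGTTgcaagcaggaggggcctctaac
Fam98a, gained: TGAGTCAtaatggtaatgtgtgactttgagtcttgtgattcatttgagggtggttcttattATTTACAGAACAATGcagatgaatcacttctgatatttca

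The first question was how many of the day 1 sites were still bound by Sox2 at day 5. Of the 5793 day 1 summits, 1894 were kept, which is 32.7% (95% Wilson interval 31.5 to 33.9). Seen from day 5, 1895 of 21551 summits were already present at day 1, which is 8.79% (8.42 to 9.18). Windows of 100 bp to each side of the day 5 summits covered 0.159% of the chromosomes, and those of the day 1 summits covered 0.0427%. Both shares were thus far above the part of the genome that the other list occupied.

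The height of a summit went with whether it was found on the other day. Each summit carries a MACS2 score, its p-value on a −log10 scale, which is not scaled between libraries. The median score was 8.24 at lost sites, 10.4 at kept sites on day 1 and 8.62 at gained sites. At the 1894 kept sites the day 5 score had a median of 17.9 and was above the day 1 score at 1445 of them (76.3%). The scores of the 2 days were only loosely related across kept sites (Spearman's rho = 0.215, n = 1894 sites of the same 2 libraries). The kept share was 57.6% in the top decile of the day 1 list and 18.5% in the lowest. In the day 5 list the share present at day 1 was 33.5% in the top decile and 1.44% in the lowest.

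**Figure D1:**
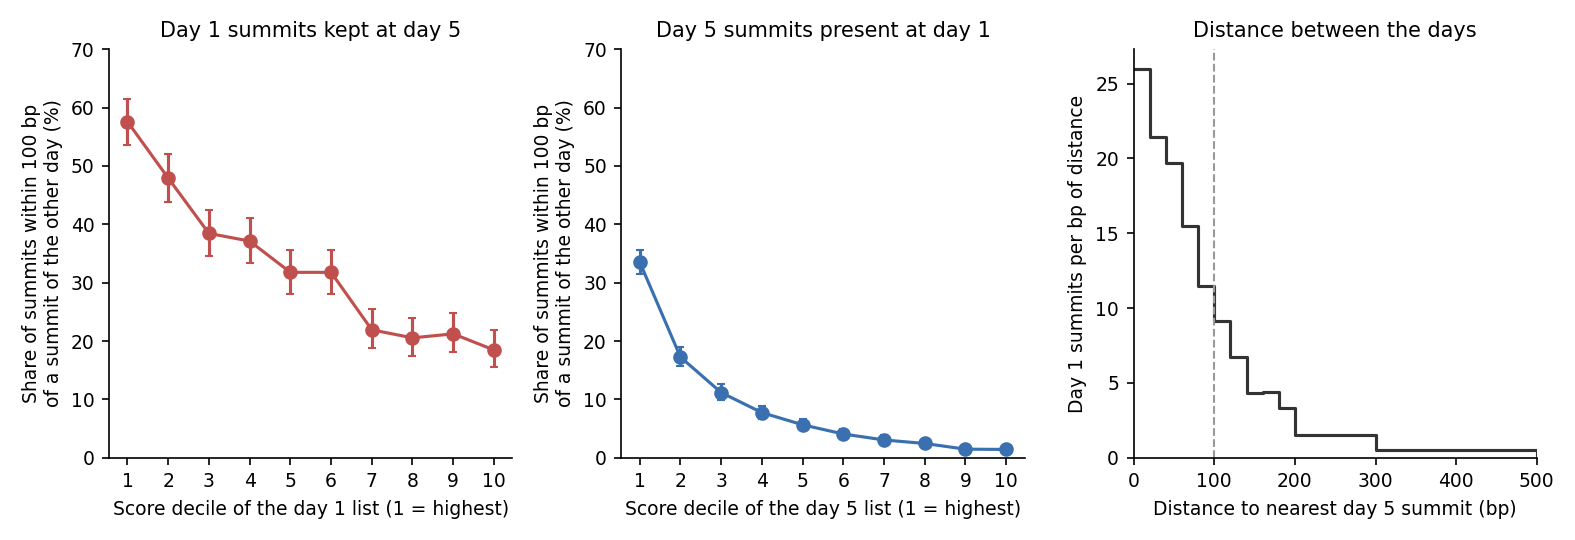
Left and centre, share of summits (%) within 100 bp of a summit of the other day, by score decile of the day 1 and the day 5 list; points are shares and bars are 95% Wilson intervals. Right, number of day 1 summits per bp of distance to the nearest day 5 summit, with the 100 bp limit as a dashed line. The kept share of day 1 summits went from 57.6% in the top decile to 18.5% in the lowest, and the distances ran past the limit without a break.

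The limit of 100 bp split a continuous range of distances. Between 81 and 100 bp from a day 5 summit there were 230 day 1 summits with a median score of 10.2, and in the next 20 bp there were 183 with a median score of 9.09. The median distance at kept sites was 39.5 bp, and 531 of them (28.0%) lay within 20 bp. Of the 3899 lost sites, 883 (22.6%) had a day 5 summit beyond the limit but within 1000 bp, and 3016 had none within 1 kb. Among the 100 highest-scoring lost sites 39 had a day 5 summit within 1 kb, and among the 100 highest-scoring gained sites 31 had a day 1 summit within 1 kb. Of the gained sites as a whole, 932 of 19656 (4.74%) had one. The kept share was 20.1% at 50 bp, 43.9% at 250 bp and 47.9% at 1000 bp, the last setting being added after the data were seen.

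At equal numbers of top-ranked summits fewer day 1 sites were found again. With the 5793 best summits of each day, 1276 were kept, or 22.0% (21 to 23.1), and 4517 were lost and 4517 gained. Another 618 kept sites matched a day 5 summit ranked below that limit. The day 5 list had to be taken down to a score of 12.4 for this number, whereas the day 1 list ended at 4.03. With the 1000 best summits of each day the share was 19.1% (16.8 to 21.7), and with the 250 best it was 13.2% (9.56 to 18).

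The 4 highest-scoring lost sites were all within 200 bp of a day 5 summit. The lost summit 6.6 kb from the start of Sox21, an HMG-box factor of neural progenitors, scored 87.0 on day 1, and the gained summit at the same locus scored 170 on day 5. The lost summit in an intron of Snd1 (chr6:28659017-28659117) scored 39.1 and lay 102 bp from a day 5 summit of 66.0. The one 75.9 kb upstream of Neurod1, a proneural factor (chr2:79532647-79532747), scored 38.1 and lay 120 bp from a day 5 summit of 26.7. The one in Epb41l1 (chr2:156459880-156459980) scored 36.9 and lay 107 bp from a day 5 summit of 17.4. These 4 sites were lost by the 100 bp rule while their loci held Sox2 summits on both days.

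The highest-scoring lost sites without any day 5 summit within 1 kb were picked after the values were seen, in order of score. The site in Cyp2j9, a cytochrome P450 gene, scored 33.5 on day 1, with the nearest day 5 summit 29475 bp away. The site beyond Gpr149 scored 29.7, and those in Egf and Cntnap4 scored 29.0 each. Near the Cyp2j9 site the Sox2 libraries of Oct4-SK had summits of 23.9 on day 1 and 10.4 on day 5. The Egf site lies in a run of repeated attgt units in the printed bases, and Sox2 summits of day 1 were found there in Oct4-SK (17.95) and Oct6-SK (8.59). The Gpr149 site also held an Oct4defSox2 summit of 64.1 on day 1 and Sox2 summits of 15.2 in Oct4-SK on day 1, 13.8 in Oct4-SK on day 5 and 14.7 in Oct6-SK on day 1, and the Cntnap4 site had no summit in the other 11 libraries.

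The 4 named kept sites were chosen by the mean of their scores on both days, to which day 5 contributed most, so their higher day 5 scores are no finding. The summit 135 bp upstream of the start of Mobp, a myelin gene, scored 52.1 on day 1 and 265 on day 5. The site in the coding sequence of Pou5f1, 290 bp into the gene that encodes Oct4 (chr17:35506258-35506358), scored 32.6 and 281. An intergenic site 520.5 kb from the start of Zfp352 (chr4:90744097-90744197) scored 13.0 and 199, and the one 149.4 kb from Gm9376 scored 36.3 and 167. The Mobp window held several CTTTGTT or CCTTTGT matches, the Gm9376 window held AACAATGG 5 to 12 bp from the summit, and the Pou5f1 and Zfp352 windows held none of the Sox matches. At the Mobp, Pou5f1 and Gm9376 sites all 4 Sox2 libraries of the other cocktails had a summit, and at the Zfp352 site only that of Oct6-SK at day 5 had one (20.8).

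Of the 4 highest-scoring gained sites, 3 again lay at loci already marked on day 1. The summit in the coding sequence of Sox17, an endoderm regulator (chr1:4492270-4492370), scored 281, and the day 1 summit 140 bp away scored 21.9. Like the Pou5f1 and Sox2 summits it lies in a coding exon without a Sox match, and whether its reads come from the gene was not tested. The summit in the coding sequence of Sox2 itself (chr3:34650604-34650704) scored 178, and the day 1 summit 106 bp away scored 36.2. The Sox21 summit was the third of them. The fourth, between genes 101.5 kb from the start of Kctd1, scored 148 and had no day 1 summit within 291178 bp. The Sox17, Sox2 and Sox21 windows of day 5 held none of the Sox matches.

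The next gained sites without a day 1 summit within 1 kb were again picked after the values were seen. The site in Arid1b, a chromatin remodeller gene, scored 117 on day 5 and was 366861 bp from the nearest day 1 summit. The sites in Trak1 and upstream of Socs3, an inhibitor of cytokine signalling, scored 91.5 and 91.4. All 3 were marked at day 5 by Sox2 in Oct4-SK, at 35.7, 17.7 and 26.3, and in Oct6-SK, at 20.8, 11.8 and 27.4. On day 1 Sox2 summits were already present in Oct4-SK at the Socs3 site (29.2) and the Arid1b site (9.12), and in Oct6-SK at the Arid1b site (6.98). These sites were thus without a Sox2 summit at day 1 in Oct4defSox2-SK but not always in the other cocktails. Each of these 3 printed windows has a CATTGTT or CCATTGT match. At the Sox21 locus the Sox2 summits of Oct4-SK at day 5 lay near both positions, with 81.7 near the lost and 52.8 near the gained one.

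Summits in coding exons of genes that the retroviruses carry need separate mention, because reads from a proviral cDNA and from the gene have the same sequence. There were 2 such summits on day 1 and 6 on day 5, in Pou5f1, Sox2 and Klf4. On day 5 they included Sox2 summits of 178 and 130, Pou5f1 summits of 281, 35.4 and 5.42, and a Klf4 summit of 9.53. The kept Pou5f1 summit was also found with the Sox2 antibody in the other cocktails. In Oct4-SK it scored 28.0 on day 1 and 102 on day 5, and in Oct6-SK 71.5 and 33.0. On day 1 Oct4 in Oct4-SK (17.4) and Oct4defSox2 (9.86) had summits there too. Whether the reads come from the gene or from a provirus was not tested. Leaving out all exon summits of Pou5f1, Sox2 and Klf4 gave a kept share of 32.7%, an alternative chosen after seeing the data.

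Sox matches were the most frequent of the motifs searched at all classes of site, and they were most frequent at kept sites. Both strands were searched within 100 bp of each summit, and windows of the same length 2 kb to either side gave the background. CATTGTT or CCATTGT occurred at 22.3% of lost sites, 29.8% of kept sites and 16.4% of gained sites, against 7.09%, 6.63% and 5.85% of their flanking windows. The share at kept sites was 7.49 percentage points above that at lost sites (95% Newcombe interval 5.07 to 9.95). With CTTTGTT and CCTTTGT added, after the data were seen, the shares were 43.2%, 54.8% and 35.5%, against flanking shares of 15.5%, 15.7% and 14.0%. Sox matches were concentrated at the summit: 19.8% of those found within 250 bp of a kept summit lay within 20 bp of it, compared with 14.5% at lost and 16.7% at gained sites.

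Gained sites had fewer Sox matches than lost sites over the full lists and more of them at equal numbers. The difference gained minus lost was -5.93 points (-7.36 to -4.55) over all sites and 3.14 points (1.37 to 4.91) with the 5793 best summits of each day, where 25.9% of gained and 22.8% of lost sites held a match. Within the gained sites the share went from 28.0% in the top score decile to 8.65% in the lowest. Within the lost sites the corresponding shares were 24.9% and 17.2%. The direction therefore turned with how far down the day 5 list was read.

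AP-1 matches, TGACTCA, were likewise most frequent at kept sites. They occurred at 12.1% of lost, 17.1% of kept and 11.5% of gained sites, with 3.39%, 3.85% and 3.61% in flanking windows. The difference between gained and lost sites was -0.61 points (-1.76 to 0.48), an interval that includes 0. At equal numbers it was 4.91 points (3.44 to 6.38), with a match at 17.5% of gained and 12.6% of lost sites. A Sox and an AP-1 match in the same window were found at 5.17% of kept sites, 2.62% of lost sites and 2.2% of gained sites. Neither was found at 58.3% of kept, 68.2% of lost and 74.3% of gained sites, or at 36.9%, 49.7% and 57.6% with the wider Sox match.

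**Figure D2:**
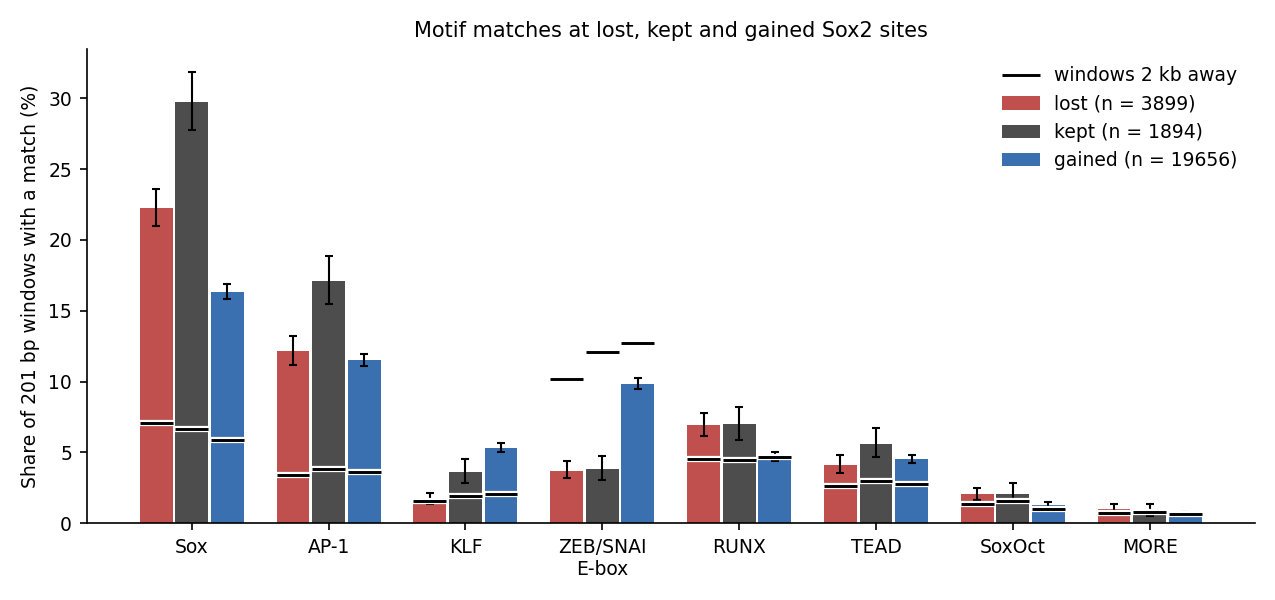
Share of windows (%) that hold each motif within 100 bp of lost, kept and gained summits; bars are shares, error bars are 95% Wilson intervals, and black lines are the shares in windows 2 kb away. Sox and AP-1 matches were most frequent at kept sites, KLF matches at gained sites, and E-boxes were below their flanking windows in all 3 classes.

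**Figure D3:**
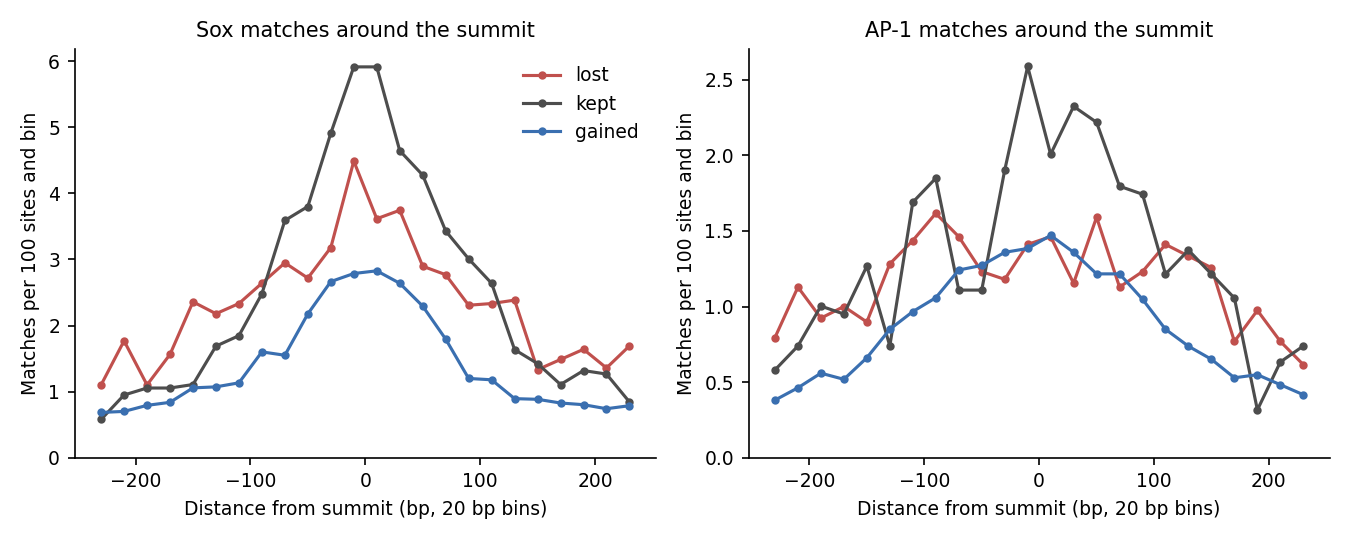
Sox (left) and AP-1 (right) matches per 100 sites in 20 bp bins, by distance from the summit (bp), for lost, kept and gained sites. The Sox curve of kept sites peaked at the summit with 5.91 matches per 100 sites and bin, against 4.49 at lost and 2.83 at gained sites.

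KLF matches were more frequent at gained than at lost sites, over the full lists and at equal numbers. GGGTGTGG or GGGCGTGG, the kind of GC-rich box that Klf4 recognises, occurred at 1.69% of lost, 3.59% of kept and 5.31% of gained sites, with 1.54%, 1.90% and 2.05% in flanking windows. The difference gained minus lost was 3.61 points (3.07 to 4.10) over all sites and 4.63 points (3.82 to 5.46) at equal numbers. The KLF share was higher at gained sites within 1 kb of a coding start (9.33%) than elsewhere (4.87%), and outside such promoters the difference from lost sites was 3.22 points (2.67 to 3.70). Base composition moved with it: G and C made up 38.1% of the windows at lost sites, 40.9% at kept sites and 45.9% at gained sites, against 40.3%, 41.7% and 43.3% in their flanking windows. Its part in the KLF difference was not tested.

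CACCTG, the E-box bound by the ZEB and SNAI repressors of epithelial genes, was scarcer at Sox2 sites than beside them. It occurred at 3.72% of lost, 3.8% of kept and 9.85% of gained sites, against 10.2%, 12.1% and 12.8% of flanking windows. In the top score decile of gained sites the share was 5.75%, and in the lowest it was 13.2%. RUNX matches (TGTGGTT) were at 6.92% of lost and 6.97% of kept sites, and at 4.71% of gained sites, where the flanking share was 4.67%. TEAD matches (ACATTCC) were at 4.13%, 5.60% and 4.52% of the 3 classes. ETS matches (CCGGAAGT) were at 2 of 3899 lost sites and at 75 of 19656 gained sites, of which 49 lay within 1 kb of a coding start.

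SoxOct and octamer sequences were rare at all classes of site when matched as set out here. A SoxOct match, the composite element with up to 2 mismatches, was found at 2.03% of lost sites (79), 2.06% of kept sites (39) and 1.31% of gained sites (258), and at 1.37%, 1.56% and 0.982% of flanking windows. The difference gained minus lost was -0.71 points (-1.23 to -0.28), with at most 1 mismatch it was 0.0091 points (-0.17 to 0.11), and with up to 3 it was -5.20 points (-6.42 to -4.04). SoxOct matches may overlap a Sox match, since the element contains one. MORE, the palindromic element on which POU factors form homodimers, was matched with up to 1 mismatch at 1.00%, 0.845% and 0.656% of lost, kept and gained sites. In their flanking windows the shares were 0.731%, 0.766% and 0.664%, so gained sites were at background. The octamer ATGCAAAT occurred at 1.44%, 0.686% and 1.15%, below its flanking shares of 1.69%, 1.66% and 1.37%.

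No spacing between a Sox core and an octamer half-site stood out. CATTGT or CTTTGT followed on the same strand by ATGC after 0 to 10 bases was counted at each spacing. At gained sites the shares lay between 0.163% and 0.290%, with the highest value at spacings of 9 and 10. At lost sites they lay between 0.180% and 0.436%, and at kept sites between 0.264% and 0.739% on at most 14 sites. The share was above that of flanking windows at every spacing in each class, by unequal amounts. At lost sites it was 0.436% against 0.0513% at spacing 4 and 0.410% against 0.218% at spacing 10. At kept sites it was 0.370% against 0.0264% at spacing 0 and 0.739% against 0.158% at spacing 10. The highest-scoring sites with a SoxOct match were the lost site beyond Gpr149, a kept site in the coding sequence of Rtkn2 (chr10:68040066-68040166) with scores of 11 and 102, and the gained site beyond Fam98a with a score of 92.3. The Fam98a site had a day 1 summit of 13.6 at a distance of 267 bp. The SoxOct match of the Gpr149 site lay 47 to 61 bp from the summit and reaches beyond the printed bases. The capitals printed for that site mark a CCTTTGTT match instead.

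The 8-mers with the largest excess over flanking windows were mostly sequences with ACAAA or ACAATGG in all 3 classes. At lost sites the leading one was AACAAAAG, in 8.23% of windows against 2.33% of flanks, and it was followed by ACAAAAGA, ACAAAGAA, AACAAAGA, AAAAGAAA and AGAACAAA. At kept sites CTTTGTTC led with 9.56% against 1.61%, ahead of AACAAAAG with 9.13% against 1.74%. At gained sites CTTTGTTC led with 5.05% against 1.26%, followed by AACAAAGG with 5.01% against 1.31%. The 6 of the gained class also included the AP-1 sequence GTGACTCA (4.18% against 0.969%), which was in 3.98% of lost and 5.33% of kept windows, and ACAATGGC (3.62% against 0.646%). The ACAATGGC share was 3.49% at lost and 6.49% at kept sites. AACAAAAG was in 4.71% of gained windows.

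Gained sites lay nearer to genes than lost sites. Within 1 kb of the start of a protein-coding transcript were 1.87% of lost sites, 1.90% of kept sites and 9.87% of gained sites, a difference gained minus lost of 8.00 points (7.37 to 8.57). At equal numbers the share at gained sites was 8.59%. The median distance to a coding start was 84991 bp at lost, 60422 bp at kept and 36628 bp at gained sites. Over 100 kb from any coding start were 46.9% of lost, 37.6% of kept and 29.4% of gained sites. Introns held 43.1%, 45.4% and 45.6%, and coding exons 0.462%, 0.898% and 1.48%. At least 1 CpG was present in 59.9%, 70.1% and 79.6% of windows, against 66.4%, 70.1% and 74.7% of flanks.

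The sites were next laid over the other libraries. Oct4defSox2 at day 1, with 31060 summits, lay within 100 bp of 39.8% of lost sites, 61.4% of kept sites and 14.7% of gained sites. The difference gained minus lost was -25.1 points (-26.7 to -23.5), and at equal numbers it was -10.4 points (-12.4 to -8.42), with 31.9% at the top-ranked gained sites. With a distance of 50 bp it was -14.8 points and with 250 bp -37.3 points. In the top score decile of gained sites the share was 39.5%, and in the lowest it was 3.82%. Oct4defSox2 at day 5 had only 1034 summits and lay at 0.410% of lost, 1.00% of kept and 0.290% of gained sites. Sites shared with Oct4defSox2 at day 1 held more octamers: 2.90% against 0.468% of the other lost sites, and 2.49% against 0.924% of the other gained sites. SoxOct matches were likewise at 3.42% against 1.11% of lost sites and at 3.39% against 0.954% of gained sites.

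Sox2 in the other cocktails shared the kept sites most often. Sox2 of Oct4-SK lay at 41.9% of kept sites on day 1 and 29.6% on day 5, and Sox2 of Oct6-SK at 17.4% and 24.1%. At day 1 the shares of lost and gained sites were 21.1% and 5.78% for Oct4-SK and 9.44% and 1.34% for Oct6-SK. At day 5 they were 4.08% and 8.38% for Oct4-SK and 3.44% and 4.79% for Oct6-SK. The difference gained minus lost was -15.3 points (-16.7 to -14.1) for Sox2 of Oct4-SK at day 1 and 4.31 points (3.54 to 5.01) at day 5. At equal numbers the differences were -8.15 points (-9.75 to -6.54) and 18.8 points (17.5 to 20.2), with 14.8% and 23.6% of the top-ranked gained sites shared. At 50 and 250 bp the day 1 difference was -9.64 and -22.8 points and the day 5 difference 1.82 and 7.06 points. For Oct6-SK the top-ranked gained sites were shared at 3.52% on day 1 and 14.9% on day 5. These lists differ in length, from 15219 summits for Oct4-SK at day 1 to 2669 for Oct6-SK at day 5, so shares are comparable between classes within a library and not between libraries.

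The share of gained sites found in no other library depended on how far down the day 5 list was read. Of the 19656 gained sites, 14457 (73.6%) had no summit within 100 bp in the other 11 libraries, compared with 42.7% of lost and 17.1% of kept sites. At equal numbers, added after the data were seen, the shares were 44.0% (42.5 to 45.4) of gained, 40.2% (38.8 to 41.7) of lost and 13.2% of kept sites. All 4 Sox2 libraries of the other cocktails had a summit at 76 kept sites (4.01%), 14 lost sites and 28 gained sites. Oct4 of Oct4-SK at day 1 lay at 6.36% of lost, 10.4% of kept and 1.75% of gained sites, and at day 7 at 0.795%, 1.58% and 0.987%. Top-ranked gained sites were shared with these lists at 3.52% and 2.13%. Oct4 S151M, with 101151 summits, lay at 20.8%, 26.8% and 7.11%, and Oct6 M151S at 6.90%, 12.4% and 2.44%, with 13.0% and 4.56% at top-ranked gained sites. The labels of the Oct6 M151S library disagree on its day, which its title gives as day 1. Its list reached down to a lower score than the others and had a median of 3.74, which makes its share less comparable still.

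**Figure D4:**
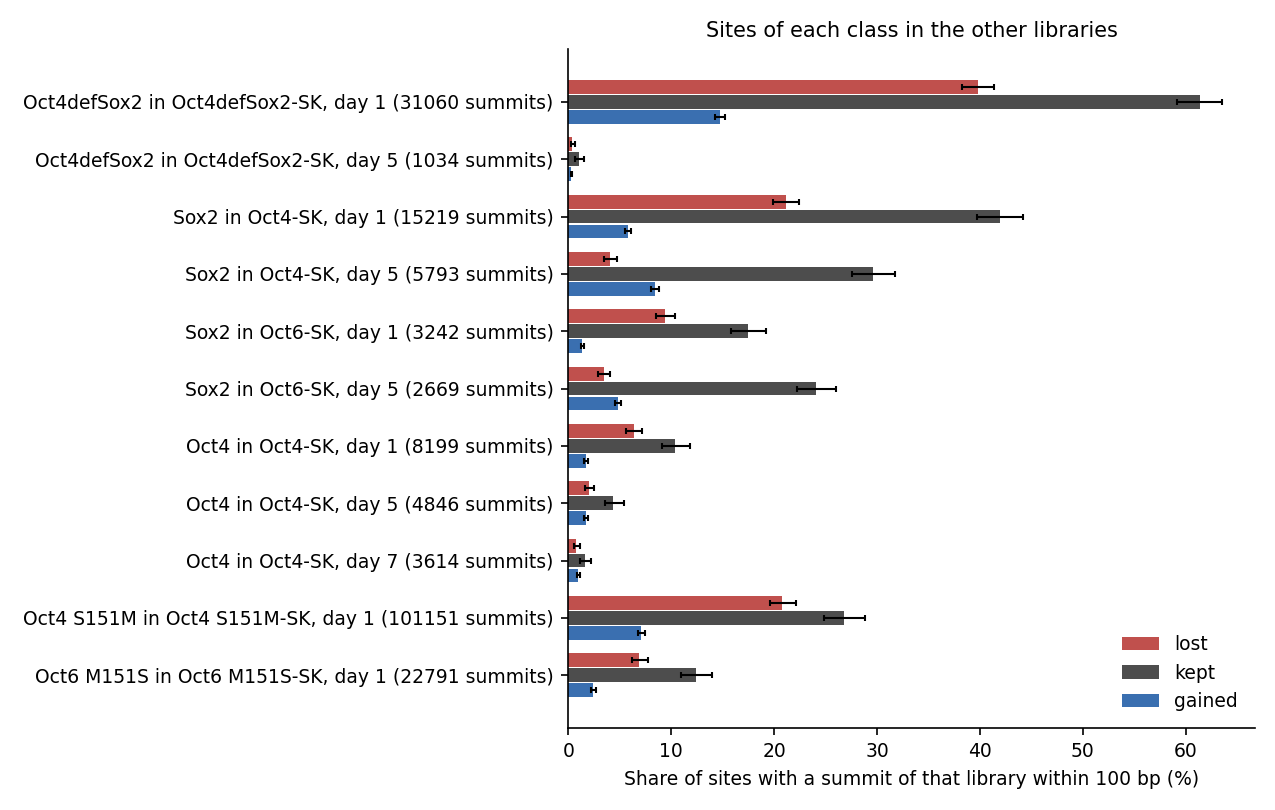
Share (%) of lost, kept and gained sites with a summit of each other library within 100 bp; bars are shares, error bars are 95% Wilson intervals, and the length of each list is given beside its name. Kept sites had the highest share in every library, and gained sites were above lost sites for the day 5 Sox2 lists of Oct4-SK and Oct6-SK and slightly for Oct4 at day 7.

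The share of Sox2 sites kept from day 1 to day 5 was compared between cocktails with the 2669 best summits of each of the 6 Sox2 lists. It was 21.1% (19.6 to 22.6) in Oct4defSox2-SK, 17.1% (15.7 to 18.6) in Oct4-SK and 11.3% (10.1 to 12.5) in Oct6-SK. The difference was 3.97 points (1.86 to 6.08) from Oct4-SK and 9.78 points (7.82 to 11.7) from Oct6-SK. With the 1000 best summits the difference from Oct4-SK was 2.80 points (-0.55 to 6.14). With the 250 best the share was 13.2% (33 sites) in Oct4defSox2-SK, 18% in Oct4-SK and 12.8% (32 sites) in Oct6-SK. The order of Oct4defSox2-SK and Oct4-SK thus depended on the number of summits. Oct6-SK had the lowest share at each of the 6 numbers taken, but at 250 it was hardly below Oct4defSox2-SK. At 2669 the Oct6-SK day 5 list was taken whole, whereas the day 5 lists of Oct4-SK and Oct4defSox2-SK held 5793 and 21551 summits. What this difference in list length contributes was not tested. At 2669 summits each, the day 5 list of Oct4defSox2-SK shared 32.0% of its sites with Sox2 of Oct4-SK at day 5 and 30.8% with Sox2 of Oct6-SK at day 5, but 21.1% with its own day 1 list. The day 1 list shared 22.0% with Sox2 of Oct4-SK at day 1 and 17.1% with Sox2 of Oct6-SK at day 1.

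**Figure D5:**
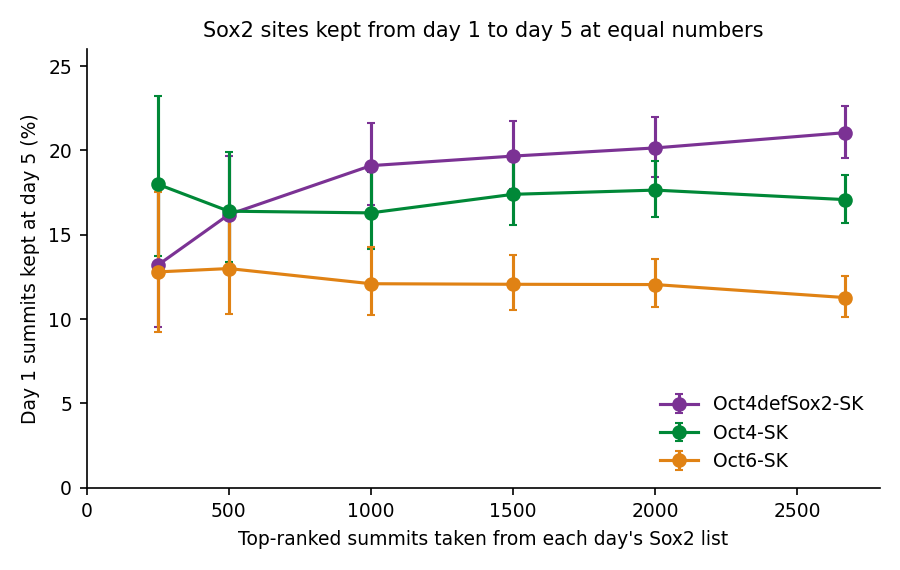
Share (%) of day 1 Sox2 summits within 100 bp of a day 5 Sox2 summit when the same number of top-ranked summits is taken from each day, for 3 cocktails; error bars are 95% Wilson intervals. Oct4defSox2-SK went from 13.2% at 250 summits to 21.1% at 2669. Oct6-SK was the lowest at each number, at 250 summits with 12.8%.

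Genes were then read by class of site within 50 kb of a start. Of 21827 protein-coding genes, 9.14% had a lost site, 6.02% a kept site and 57.4% a gained site, and 19.6% had a gained site at equal numbers. Of the 1996 genes with a lost site, 1461 (73.2%) also had a gained site. The lists below hold 10 to 27 genes and were chosen with earlier results known. Their counts are given as a description, to be read beside the shares over all coding genes.

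The Sox family had sites of every class. Of 19 genes, 6 had a lost site, 5 a kept site and 14 a gained site, and 9 (47.4%) had a gained site at equal numbers. Of the 19, 3 (15.8%) had a lost site without a day 5 summit within 1 kb, against 6.98% of all coding genes, and Sox2, Sox17 and Sox21 were not among them. Beside Sox2, Sox17 and Sox21, the highest were a lost site of 31.2 at 20.3 kb from Sox6, a regulator of chondrocyte and muscle differentiation, with a day 5 summit within 1 kb, a kept site of 18.6 on day 1 at 4.6 kb from Sox13, and a gained site of 39.0 at 12.4 kb from Sox9, a chondrogenic factor. Sox6 had 2 lost, 1 kept and 8 gained sites, and Sox11, a neural factor, had 1 lost and 5 gained sites with a highest score of 32.7. Of 15 POU genes none had a lost site, 3 (20%) had a kept site and 10 (66.7%) a gained site, 4 of them (26.7%) at equal numbers. Over all coding genes these shares were 9.14%, 6.02%, 57.4% and 19.6%. Pou3f1, which encodes Oct6, had a kept site of 13.8 on day 1 at 1.9 kb and a gained site of 28.8 at 1.3 kb, which had a day 1 summit within 1 kb.

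The naive pluripotency network, with 27 genes, was counted next. Of the 27 genes, 12 (44.4%) had a gained site, 4 (14.8%) had one at equal numbers, 3 (11.1%) had a lost site and 2 (7.41%) a kept site. Pou5f1 and Sox2, whose exon summits are described above, accounted for both kept genes. The lost site of Sox2, the only gained site of Klf4 and the highest gained sites of Sox2 and Pou5f1 are also such exon summits. Without lost sites that had a day 5 summit within 1 kb, 2 genes (7.41%) had a lost site, against 6.98% of all coding genes. Outside exons, Sox2 had a kept site of 15.7 on day 1 at 12.4 kb. Klf2 had a lost site of 17.6 at 2.8 kb, and Zfp42, a marker of pluripotent cells, a lost site of 10.4 at 42.0 kb. Gained sites included 14.3 at 5.1 kb from Klf5, 12.8 at 37.6 kb from Fgf4 and 8.62 at 20.5 kb from Nanog, while Esrrb, Tfcp2l1 and Prdm14 had no site of any class.

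Among the 12 lists, epithelial genes had the highest share with a gained site. Of 19 genes, 1 (5.26%) had a lost and none a kept site, against 9.14% and 6.02% of all coding genes. A gained site was near 16 (84.2%), and near 6 (31.6%) at equal numbers, against 57.4% and 19.6% of all coding genes. The highest were 59.0 at 42.0 kb from Dsp, which encodes the desmosomal desmoplakin, and 44.9 near Krt8 and Krt18, simple epithelial keratins that share this summit. Epcam, an adhesion molecule of epithelia, had a gained site of 15.3, and Cdh1, which encodes E-cadherin, one of 5.95 at 44.3 kb. Of 17 mesenchymal transcription factors 13 (76.5%) had a gained site, 5 of them (29.4%) at equal numbers, such as Tbx15 with 28.8 and Twist2 with 25.8, and Runx2, the osteoblast regulator, had a lost site of 25.8 at 4.5 kb. Of 15 collagens 5 (33.3%, against 6.02% of all coding genes) had a kept and 12 (80%, against 57.4%) a gained site. A gained site at equal numbers was near 4 (26.7%, against 19.6%). Col8a1 had a kept site of 30.7 on day 1. The divergent pair Col4a1 and Col4a2 shared a kept site of 6.50 on day 1, so both count among the 5, and a gained site of 40.4.

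Genes of FGF and ERK signalling had the highest share with a gained site at equal numbers. Of 20 genes 16 (80%) had a gained site and 10 (50.0%) had one at equal numbers, against 57.4% and 19.6% of all coding genes. A lost site was near 2 (10%) and a kept site near 2 (10%), against 9.14% and 6.02% of all coding genes. Fgfr2, a receptor, had 6 gained sites with a highest score of 44.9. Dusp6, a phosphatase that dampens ERK, had 2 kept and 5 gained sites. Fgf5 had a lost site of 7.99 at 36.1 kb and a gained site of 35.0 at 36.2 kb, which are 1 locus with summits on both days. In the TGF-beta pathway 1 of 20 genes had a lost site, 3 a kept site and 15 a gained site (7 at equal numbers), the highest being 35.0 near Tgfbr2 and 32.7 near Tgfbr1, the 2 receptor genes. In Wnt signalling the counts were 3, 0 and 17 of 25, and 4 (16%) at equal numbers, with gained sites of 48.3 near Wnt5a and 12 gained sites around Tcf7l2.

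Regulators of other lineages completed the lists. Of 22 neural progenitor genes 6 (27.3%) had a lost site, 2 a kept site and 14 a gained site, and 4 (18.2%) had a gained site at equal numbers. Lost sites included 10.3 near Otx2, and 8.14 near Vim with a day 5 summit within 1 kb, and the Notch ligand gene Dll1 had a kept site of 20.7 on day 1 at 6.3 kb. Of 10 AP-1 genes none had a lost site, against 9.14% of all coding genes, and Junb had a kept site of 11.2 on day 1. A gained site was near 8 (80%, against 57.4%), and near 3 (30%, against 19.6%) at equal numbers, led by Fosb with 30.9 and Fosl2 with 25.8. Of 15 endoderm and trophoblast regulators 1 had a lost, 2 a kept and 7 (46.7%) a gained site, with 3 (20%) at equal numbers. Beside the Sox17 exon summit, gained sites of 17.7 and 12.4 lay within 50 kb of Gata4 and Foxa2, and Elf5, a trophoblast factor, had a kept site of 18.5 on day 1.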

How the data were processed

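Paired-end reads were aligned by the authors to mm10 with Bowtie2 (version 2.2.5 in the submitters' processing notes), reads of low mapping quality and duplicates were removed with SAMtools, and peaks were called per library with MACS2 at a p-value cut, with several summits per peak. The Oct6 M151S list reached lower scores than the other lists. Scores were deposited by the authors as −log10 p-values of summits. The summit lists hold no fragment counts, the authors' library statistics were not used here, and the 2 peak tables with fold enrichment were not used here. Summit positions on chromosomes 1 to 19, X and Y were used as deposited. Motifs were searched in GRCm38 with Python 3.11.15 and numpy 2.4.6, and coding starts were taken from GENCODE M21 basic. Shares carry 95% Wilson intervals and differences Newcombe intervals, which cover counting error only. Functions were tested on simulated data. Named sites were the 4 highest of each class (lost by day 1 score, gained by day 5 score, kept by the mean of both), at least 10 kb apart, and the highest with a SoxOct match. Named genes were among the 4 with the highest-scoring site of a list and class, and others were added after their values were seen. The sites, motifs and gene lists were chosen with earlier results of these data known. One gene of the lists is not reported by name here.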

Additional observations from a re-analysis of the deposited data

How the results depend on the processing

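Of 107 alternatives for the 12 differences, 92 kept direction and side of 0. With scores of at least 10, the retention difference from Oct6-SK was 4.07 points (0.054 to 8.08). At that score the retention difference from Oct4-SK was 0 points, the Sox difference gained minus lost -1.83, SoxOct -0.38 and MORE -0.31, all with intervals that include 0, and AP-1 reversed to 4.12. At equal numbers Sox reversed to 3.14 and AP-1 to 4.91, and with the 1000 best summits the difference from Oct4-SK was 2.80. Stricter matches gave 0.0091 for SoxOct, 0.0204 for MORE, -0.73 for AP-1, -1.26 for Sox, 1.33 for KLF and 2.56 for Sox at kept minus lost sites, looser ones -4.12 for AP-1, -5.20 for SoxOct, -5.33 for MORE (-0.34 in the main setting), -11.2 for Sox and 10.3 for KLF, windows of 50 bp -0.21 for SoxOct, 0.31 for AP-1 and 1.97 for KLF, and sites outside promoters (chosen after seeing the data) 0.10 for AP-1. The cause of these changes was not tested. The kept share of day 1 sites was 20.1% at 50 bp, 43.9% at 250 bp, 47.9% at 1000 bp, 38.7% with scores of at least 10, 22.0% at equal numbers and 30.7% without sites that all 3 antibodies marked elsewhere. The share of day 5 sites present at day 1 was 5.41%, 11.8%, 13.1%, 9.34%, 22.0% and 7.96% in the same order. At equal numbers the kept share was 14.2%, 28.4% and 30.6% at the 3 distances, 20.3% with scores of at least 10, 19.1% with the 1000 best and 20.2% without sites of all 3 antibodies. No paired analysis was possible because each group was 1 library. Leaving out lost and gained sites whose nearest summit of the other day lay between 100 and 1000 bp away, also chosen after seeing the data, changed no call.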
